A study of Mus musculus with 12 samples.

Results

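The G2 and M phase genes are 46 genes that cells use between the end of DNA replication and the separation of the daughter cells, taken as a fixed list of cyclins, kinases, kinesins, kinetochore proteins and their partners. Each was read through its brightest probe set that names 1 gene. This gave 45 of the 46 genes among 22180 tested genes. Ccnb1, which encodes cyclin B1, has no such probe set and has no value here, and Fam64a is listed on the array under its newer symbol, Pimreg. The list was drawn up with earlier results of these data known.

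The cells were LSK cells sorted from bone marrow and lysed without culture. LSK stands for cells that lack lineage markers and carry Sca1 and Kit, a fraction that holds blood stem cells and multipotent progenitors. The mice were C57BL/6, either Mll5+/+ (wild type) or Mll5-/- (mutant, without the chromatin regulator Mll5, whose gene is now named Kmt2e), and were bred from Mll5+/- parents. Mice of the NAC groups drank water with 1 g per liter of N-acetyl-L-cysteine, an antioxidant, from before birth on, since dosing began when their parents were mated and did not stop. Mice of the mock groups did without it. Each of the 4 groups (wild-type mock, mutant mock, wild-type NAC and mutant NAC) had 3 Affymetrix arrays. Whether the 3 arrays of a group were hybridised with RNA of different mice is not stated, so the spread that the tests use may be partly or wholly technical. The knockout affects the whole animal, and all animals of a NAC group had the compound throughout their development.

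A dividing cell enters mitosis when CDK1, bound to cyclin A or cyclin B, is freed from inhibitory phosphate by CDC25 phosphatases. Polo and Aurora kinases, kinesin motors and kinetochore proteins then build the spindle and attach the chromosomes, and the anaphase-promoting complex ends mitosis by marking cyclin B and securin for destruction. The genes for these proteins are held silent in resting and early cycling cells by the DREAM complex and are switched on late in the cycle by B-MYB and FOXM1, so that their RNA is found mainly in cells in G2 and M. In LSK cells most true stem cells rest, while the progenitors among them cycle. An array of bulk RNA reads the sum over all sorted cells, so fewer cells in G2 or M and less RNA per such cell cannot be told apart.

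All 45 measured genes had a mean log2 signal above that of the median gene, 3.17. Array medians of all deposited values lay between 2.89 and 2.96, and the correlation of any pair of arrays across genes was 0.976 to 0.988. Mutant NAC replicate 1 and wild-type mock replicate 1 had the lowest array weights in limma, 0.54 and 0.71. Kmt2e gave log2 signals of 7.49, 7.39 and 7.68 in wild-type mock, 7.51, 7.38 and 6.93 in mutant mock, 7.37, 7.78 and 7.50 in wild-type NAC and 7.02, 7.33 and 7.01 in mutant NAC. Its log2 difference between genotypes over both treatments was -0.34 (SE 0.12, adjusted p = 0.419), and the labels do not say which exons are deleted, so this does not check the genotypes. Kit, one of the markers used in the sort, lay between 8.74 and 9.24 on the log2 scale and Cd34 between 9.87 and 10.52, while Ly6a, the gene for Sca1, was not read by a single-gene probe set. The lineage markers Cd3e (2.04 to 2.52), Ms4a1 (1.60 to 1.93) and Ly6g (1.61 to 2.57) lay below the median gene in every array. They were picked from longer marker lists of T and NK cells, B cells, and granulocytes and monocytes. The levels of the other genes of those lists are not given here, so the purity of the sort was not tested.

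The stretches of promoter below are examples of 2 motifs, counted afterwards over all windows of the G2 and M phase genes. The list did not use sequence. Genes of this programme are known for a CCAAT box, bound by NF-Y, and for a short element named CHR close to the start of transcription, through which DREAM and B-MYB act. RefSeq promoter windows on GRCm38.p6, from 250 bases before to 50 bases after the start, were found for 38 of the 46 genes, in 41 windows. The windows were searched on both strands for the CHR cores TTTGAA and TTCGAA and for CCAAT. On the other strand, CCAAT appears as ATTGG and TTTGAA as TTCAAA, and matches to the motifs may share bases, as happens in the Cdca8 window. Aurkb, Ccna2, Cdc25c, Cdca2, Dlgap5, Fam64a, Kif20a and Tpx2 have no window. The 100 bases just before the start are shown for 5 genes whose CHR core and CCAAT box both lie there: Cdk1 (the kinase that starts mitosis), Ckap2l (a spindle protein), Kif11 and Kif22 (spindle and chromosome motors) and Top2a (which untangles DNA). All are written 5′ to 3′ on the strand of the gene, and capitals mark the matches to both motifs.
Cdk1: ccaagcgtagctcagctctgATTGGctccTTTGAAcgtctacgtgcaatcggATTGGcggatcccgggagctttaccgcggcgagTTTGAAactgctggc
Ckap2l: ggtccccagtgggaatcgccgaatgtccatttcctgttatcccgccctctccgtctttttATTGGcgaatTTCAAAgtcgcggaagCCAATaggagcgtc
Kif11: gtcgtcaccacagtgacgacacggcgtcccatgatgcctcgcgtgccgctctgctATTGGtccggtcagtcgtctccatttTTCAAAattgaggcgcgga
Kif22: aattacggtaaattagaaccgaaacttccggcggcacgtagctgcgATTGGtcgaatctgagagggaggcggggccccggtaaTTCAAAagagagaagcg
Top2a: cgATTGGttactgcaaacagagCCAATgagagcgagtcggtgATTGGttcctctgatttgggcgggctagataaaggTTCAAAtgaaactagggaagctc
On GRCm38.p6 they lie at chr10:69352913-69353012 (minus strand, Cdk1), chr2:129297213-129297312 (minus strand, Ckap2l), chr19:37376282-37376381 (plus strand, Kif11), chr7:127042421-127042520 (minus strand, Kif22) and chr11:99024190-99024289 (minus strand, Top2a). In Cdk1 the stretch holds 2 CHR cores and 2 CCAAT boxes, and in Top2a it holds 1 CHR core and 3 CCAAT boxes.

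Over the 300-base windows, 32 of the 38 genes (84.2%) had TTTGAA or TTCGAA, against 21.7% of all 27025 genes with a window. CCAAT was present in 29 of them (76.3%) against 41.1%, and more than once in 21 (55.3%) against 13.3%. Both motifs occurred together in 27 (71.1%), against 8.61% of all genes. The position differed as well: 30 of the 38 genes (78.9%) had a CHR core within 50 bases of the start, as did 6.12% of all genes. The matches are descriptions of letters and do not show that a factor binds there.

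No G2 and M phase gene passed the test (limma, adjusted p under 0.05 over all 22180 genes) in any of the 7 comparisons made among the 4 groups. The smallest adjusted p of any of them was 0.297, for Kif20a between genotypes over both treatments. Few genes of any kind passed: 2 of 22180 between genotypes in mock (0.00902%), 0 in NAC (0%), 1 for NAC in the mutant (0.00451%), 2 for NAC in wild type (0.00902%), 0 for the interaction (0%), 2 between genotypes over both treatments (0.00902%) and 1 for NAC over both genotypes (0.00451%). The values of the 45 genes are therefore given here as measurements, and "higher" and "lower" refer to group means that did not pass. For these genes the standard error of a log2 difference had a median of 0.17 between 2 groups and 0.12 over both levels of the other factor. In mock, the 95% interval of the genotype difference lay within 1 log2 unit of 0 for 45 of the 45 genes and within 0.5 for 20 of them. For the interaction these counts were 40 and 3.

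The mean level of the 45 genes differed between arrays, most within wild-type mock. Arrays of the same NAC group split the genes more evenly. Mutant NAC replicate 1, for example, was above replicate 2 in 22 genes and below it in 23. The mean over the genes of the log2 deviation from each gene's own 12-array mean was -0.17, 0.11 and -0.34 in wild-type mock replicates 1, 2 and 3. It was 0.11, 0.00 and -0.03 in mutant mock, 0.00, 0.06 and -0.03 in wild-type NAC and 0.10, 0.07 and 0.11 in mutant NAC. By this mean wild-type mock held both the lowest and the highest of the 12 arrays, and the mutant NAC arrays were the closest together. As means ± SD (n = 3), the groups stood at -0.13 ± 0.23 in wild-type mock, 0.03 ± 0.07 in mutant mock, 0.01 ± 0.05 in wild-type NAC and 0.09 ± 0.02 in mutant NAC. In the order of the means (wild-type mock, wild-type NAC, mutant mock, mutant NAC) the range of wild-type mock covered the other 3 groups entirely, and wild-type NAC and mutant mock overlapped. Mutant NAC lay above wild-type NAC in every array and overlapped mutant mock.

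Wild-type mock replicate 3 stood lowest. In it 21 of the 45 genes had their lowest value of all 12 arrays, and only Ndc80, a kinetochore gene, was above its own mean, by 0.17. Wild-type mock replicate 2 exceeded replicate 3 in 44 of the 45 genes, with a median log2 difference of 0.42, while 49.9% of all genes were higher in it. It also exceeded replicate 1 in 36 genes. Within the group the median SD of a G2 and M phase gene was 0.24, against 0.18 for all genes. In the other groups these genes varied no more than genes at large: 0.15 against 0.16 in mutant mock, 0.13 against 0.16 in wild-type NAC and 0.16 against 0.18 in mutant NAC. The spread of wild-type mock therefore enters the difference in each comparison that uses this group. As the variance was pooled over the 4 groups, that spread also enters the standard error and p of every comparison. With 1 array left out at a time, the difference of a gene moved by over 1.5 times or turned its sign under at least 1 array for 30 of the 45 genes between genotypes over both treatments, and turned its sign for 14. For NAC over both genotypes these counts were 36 and 10, and in the 4 comparisons of 2 groups 34 to 43 and 16 to 19.

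**Figure D1:**
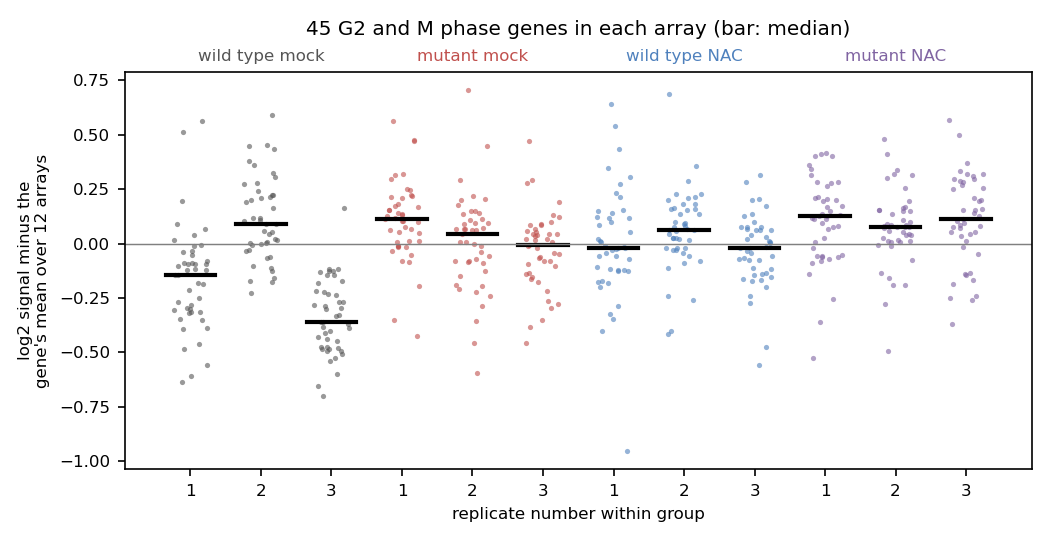
Each point is 1 of the 45 G2 and M phase genes, plotted as its log2 signal minus its mean over 12 arrays (y axis), for each array in replicate order (x axis) and coloured by group; the bar is the median. Medians are -0.14, 0.09 and -0.36 in wild-type mock and 0.13, 0.07 and 0.11 in mutant NAC.

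**Figure D2:**
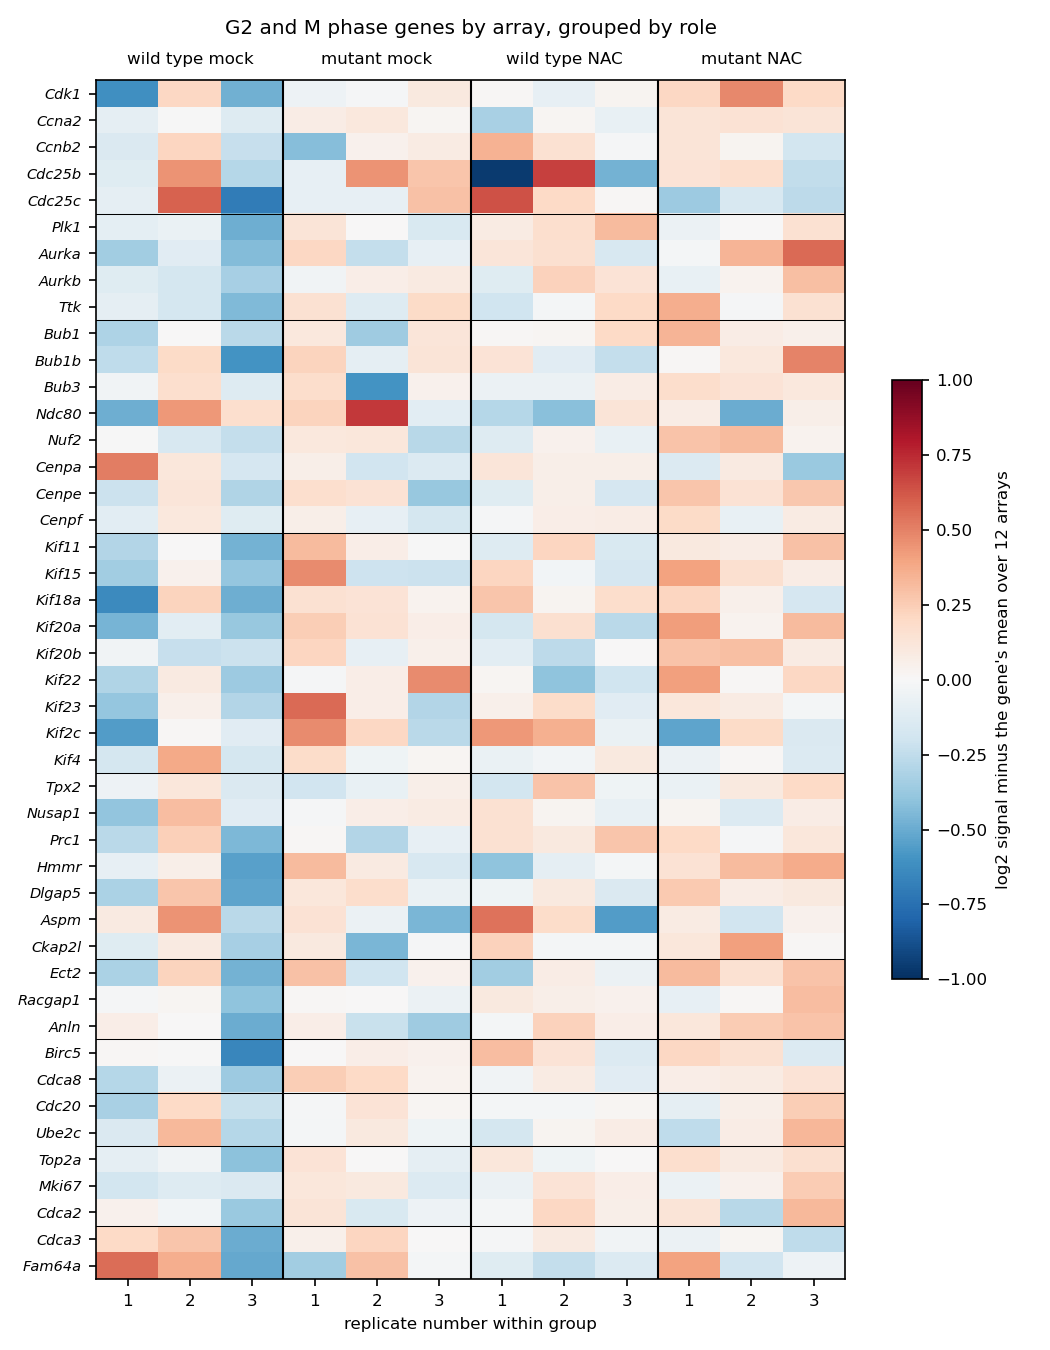
Rows are the 45 G2 and M phase genes ordered by role, columns the 12 arrays in replicate order within group, and colour the log2 signal minus the gene's mean over 12 arrays. Wild-type mock replicate 3 is below the mean in 44 of 45 rows, while 32 rows are above it in replicate 2 of the same group.

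Wild-type mock had the lowest of the 4 group means for 29 of the 45 genes (64.4%), against 26.9% of all genes. Mutant NAC had the highest for 27 (60.0%), against 27.1% of all genes. The comparison of the mutant with wild type in mock asked what loss of Mll5 does in untreated mice. There 36 of the 45 genes were higher in the mutant, with a median log2 difference of 0.18, while 50.2% of all genes were higher and their median was 0.00. At an unadjusted p under 0.05, 3 genes were higher (6.67%) and 0 lower, against 3.55% and 3.08% of all genes. All mutant arrays lay above all wild-type arrays for 4 genes (8.89%), against 5.94% of all genes, and below them for 0, against 5.46%. Those 4 were Ccna2, Aurkb, Kif20a and Cdca8. Without wild-type mock replicate 3, 29 genes were higher, the median was 0.09, and 2 genes were higher and 2 lower at an unadjusted p under 0.05. Without replicate 2 of the same group, 41 were higher, with a median of 0.27 and 10 at that p.

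In NAC-treated mice, 32 of the 45 genes were higher in the mutant, with a median log2 difference of 0.08, while 50.7% of all genes were higher. At an unadjusted p under 0.05, 5 were higher (11.1%) and 0 lower, against 3.46% and 3.71% of all genes. Arrays did not overlap for 7 genes that were higher in the mutant (15.6%, against 6.39% of all genes), namely Cdk1, Ccna2, Bub3, Cenpe, Kif20b, Hmmr and Ect2. The same held for 1 gene that was lower, Cdc25c, against 6.05% of all genes. The count of 5 was 2 without mutant NAC replicate 2 or 3 or without wild-type NAC replicate 1 or 3. Over both treatments, 36 genes were higher in the mutant, with a median of 0.12, against 50.6% of all genes. Of the 45, 10 (22.2%) were higher at an unadjusted p under 0.05 and 0 lower, against 4.74% and 4.34% of all genes: Kif20a, Kif20b, Kif22, Cdca8, Hmmr, Kif11, Ccna2, Cdk1, Ect2 and Ttk. That count was 5, beside 2 lower, without wild-type mock replicate 3 and 15 without replicate 2. No gene of the 45 had all 6 mutant arrays above or below all 6 wild-type arrays, against 0.311% and 0.234% of all genes.

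The effect of NAC was read within each genotype. In wild type, 36 of the 45 genes were higher with NAC, with a median log2 difference of 0.18, against 48.9% of all genes. This comparison uses the same wild-type mock arrays as the genotype comparison in mock. At an unadjusted p under 0.05, 2 were higher (4.44%) and 0 lower, against 2.96% of all genes in either direction. Arrays did not overlap for 4 genes (8.89%), Plk1, Bub1, Racgap1 and Mki67, all higher, against 5.42% of all genes higher and 5.32% lower. Without wild-type mock replicate 3 the median was 0.05 with 28 genes higher, and 0 were higher and 1 lower at that p. Without replicate 2 it was 0.28 with 40 higher and 10 at that p.

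In the mutant, 34 genes were higher with NAC, with a median of 0.08, against 49.6% of all genes. The median was 0.13 without mutant NAC replicate 2. Without mutant NAC replicate 3, 27 genes were higher, with a median of 0.07. With all arrays, 1 gene was higher at an unadjusted p under 0.05, Anln, and 0 lower, against 2.68% and 3.18% of all genes. The count was 0 without mutant mock replicate 2 or 3 or mutant NAC replicate 2 or 3, and 5 without mutant mock replicate 1. Arrays did not overlap for Cdk1, Ccna2 and Anln, which were higher (3 genes, 6.67%, against 5.08% of all genes), and for Cdc25c, which was lower (1 gene, against 5.14%). Over both genotypes 39 genes were higher with NAC, with a median of 0.13, against 49.3% of all genes. The median became 0.08, with 34 higher, when wild-type mock replicate 3 was left out. With all arrays kept, 5 (11.1%) were higher at an unadjusted p under 0.05 and 0 lower, against 3.55% and 3.88% of all genes. Those 5 were Aurka, Anln, Prc1, Plk1 and Cdk1. Leaving out wild-type mock replicate 2 gave 9, and leaving out any 1 of wild-type mock 3, mutant mock 2 and wild-type NAC 3 gave 2. None of the 45 had all NAC arrays above or below all mock arrays, against 0.135% and 0.203% of all genes.

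The interaction, the NAC difference in the mutant minus that in wild type, was above 0 for 18 of the 45 genes, against 49.8% of all genes, with a median of -0.08. At an unadjusted p under 0.05, 0 genes were above 0 and 1 below it (Kif2c), against 2.02% and 2.20% of all genes. The smallest adjusted p was 0.999. Without wild-type mock replicate 3 the median was 0.04 with 27 genes above 0, and without replicate 2 it was -0.17 with 11 above 0 and 3 below 0 at that p. A difference between the NAC responses of the genotypes was thus not shown, and its direction over the list turned with 1 array.

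**Figure D3:**
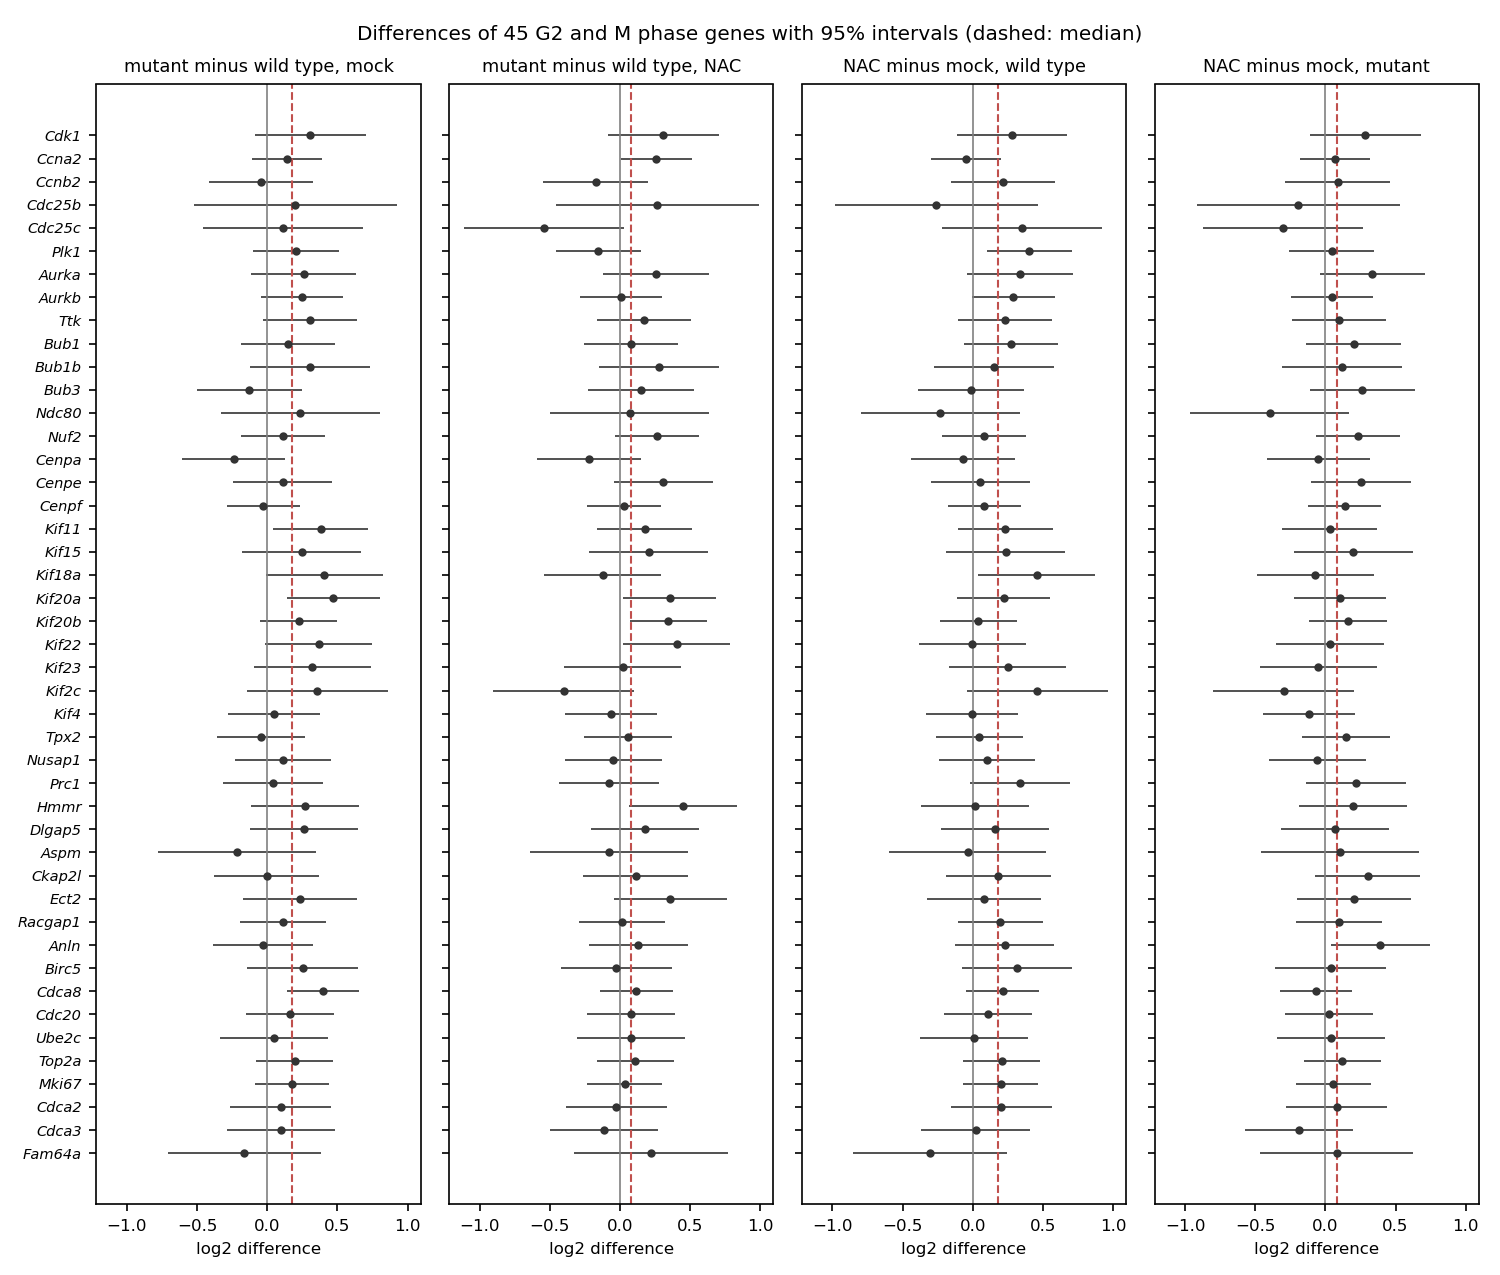
For each of the 45 genes (rows), the log2 difference with its 95% interval in each panel's comparison (x axis); the dashed line is the median of the 45. Medians lie between 0.08 and 0.18 in the 4 comparisons of 2 groups.

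The genes that open mitosis differed among themselves. Cdk1, the kinase that drives entry, gave log2 signals of 8.03, 8.85 and 8.16 in wild-type mock, 8.59, 8.63 and 8.74 in mutant mock, 8.65, 8.56 and 8.67 in wild-type NAC and 8.85, 9.12 and 8.84 in mutant NAC. Mutant NAC was above mutant mock and wild-type NAC in every array, while 1 wild-type mock array was above all of mutant mock. The log2 difference between genotypes was 0.31 in mock and 0.31 in NAC (SE 0.18 each), and over both treatments 0.31 (SE 0.13, adjusted p = 0.498). In mock, leaving out wild-type mock replicate 2 gave 0.56 and leaving out replicate 1 gave 0.15. Over both genotypes the log2 difference with NAC was 0.28 (SE 0.13, adjusted p = 0.666).

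Ccna2, which encodes cyclin A2, a partner of CDK1 in G2, gave log2 signals of 8.59, 8.68 and 8.55 in wild-type mock and 8.76, 8.79 and 8.70 in mutant mock. With NAC it gave 8.36, 8.70 and 8.61 in wild type and 8.81, 8.83 and 8.81 in the mutant. The mutant was higher in every array within each treatment, and mutant mock replicate 3 equalled the highest wild-type NAC array. Its log2 difference over both treatments was 0.20 (SE 0.08, adjusted p = 0.491). Ccnb2, which encodes cyclin B2, differed by -0.11 (SE 0.12) between genotypes over both treatments. The phosphatase genes Cdc25b and Cdc25c, whose products activate CDK1, differed by 0.23 (SE 0.24) and -0.22 (SE 0.19). The Cdc25b value was 0.06 to 0.47 and the Cdc25c value -0.375 to -0.05 with 1 array left out. Cdc25c was 4.58, 4.78 and 4.68 in mutant NAC, below all arrays of wild-type NAC (5.58, 5.14 and 4.95) and of mutant mock (4.86, 4.86 and 5.23).

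The mitotic kinases were higher in mutant than in wild-type mock for 4 of 4 genes, against 50.2% of all genes, with a median log2 difference of 0.26. In NAC 3 of 4 were higher in the mutant, against 50.7% of all genes, with a median of 0.09. The mean deviation of these kinases in wild-type mock was -0.16, -0.13 and -0.42 in replicates 1, 2 and 3. Plk1, polo-like kinase, gave 7.18, 7.21 and 6.79 in wild-type mock, 7.40, 7.28 and 7.12 in mutant mock, 7.36, 7.44 and 7.59 in wild-type NAC and 7.22, 7.28 and 7.43 in mutant NAC. All wild-type NAC arrays were above all wild-type mock arrays, and mutant mock and mutant NAC overlapped. Its log2 difference with NAC was 0.40 in wild type (SE 0.14, adjusted p = 0.739) and 0.04 in the mutant (SE 0.14). The value in wild type was 0.27 without wild-type mock replicate 3, and the interaction of -0.36 (SE 0.20, adjusted p = 0.999; -0.225 without that array) did not separate the genotypes.

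Aurka, the Aurora kinase of centrosomes and spindle poles, gave 6.21, 6.45 and 6.13 in wild-type mock and 6.77, 6.32 and 6.48 in mutant mock. With NAC the log2 signals were 6.68, 6.72 and 6.40 in wild type and 6.54, 6.90 and 7.13 in the mutant. Both genotypes were higher on average with NAC, and in each 1 array overlapped the mock range. The log2 difference with NAC was 0.34 in wild type and 0.33 in the mutant (SE 0.17 each), and 0.34 over both genotypes (SE 0.12, adjusted p = 0.542). In the mutant it was 0.20 without mutant NAC replicate 3.

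Aurkb, the kinase of the chromosomal passenger complex that corrects attachments, gave 7.57, 7.52 and 7.36 in wild-type mock and 7.66, 7.76 and 7.78 in mutant mock, with no overlap. With NAC its values were 7.57, 7.92 and 7.83 in wild type and 7.62, 7.73 and 7.99 in the mutant, which overlapped throughout. The log2 difference between genotypes was 0.25 in mock (SE 0.14, adjusted p = 0.802) and 0.01 in NAC (SE 0.14), and with NAC wild type differed by 0.29 (SE 0.14, adjusted p = 0.848). Its partners in the complex were Birc5 (survivin) and Cdca8 (borealin). Cdca8 gave 7.06, 7.28 and 6.98 in wild-type mock, 7.59, 7.54 and 7.38 in mutant mock, 7.31, 7.42 and 7.23 in wild-type NAC and 7.41, 7.42 and 7.48 in mutant NAC. The genotypes did not overlap in mock, and in NAC 1 wild-type array lay within the mutant range. Its log2 difference in mock, 0.40 (SE 0.12, adjusted p = 0.609), had the smallest p of the 45 genes there, and in NAC it was 0.12 (SE 0.12), or 0.07 without wild-type NAC replicate 3. Birc5 differed by 0.25 (SE 0.18) in mock, which was 0.03 without wild-type mock replicate 3, and by -0.03 (SE 0.18) in NAC. Ttk, the MPS1 kinase that starts the spindle checkpoint, differed by 0.31 (SE 0.15) and 0.17 (SE 0.15, or 0.08 without mutant NAC replicate 1), and by 0.24 over both treatments (SE 0.11, adjusted p = 0.547).

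The kinesins are motors that move chromosomes and shape the spindle. Between genotypes over both treatments, 4 of the 9 were higher at an unadjusted p under 0.05, against 4.74% of all genes. In mock 9 of 9 were higher in the mutant, against 50.2% of all genes, with a median log2 difference of 0.36. In NAC 6 of 9 were higher, against 50.7% of all genes, with a median of 0.18. Those medians were 0.19 without mutant mock replicate 1 and 0.11 without mutant NAC replicate 3. Kif20a, a motor of the central spindle needed for cytokinesis, gave 5.40, 5.76 and 5.48 in wild-type mock and 6.11, 6.01 and 5.93 in mutant mock. With NAC it gave 5.69, 6.02 and 5.59 in wild type and 6.28, 5.90 and 6.18 in the mutant. The genotypes did not overlap in mock, and in NAC 1 wild-type array was above the lowest mutant array. The log2 difference was 0.47 in mock (SE 0.15, adjusted p = 0.640), 0.35 in NAC (SE 0.15, adjusted p = 0.679) and 0.41 over both (SE 0.11, 1.33-fold, adjusted p = 0.297).

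Kif20b, a second kinesin of cytokinesis, gave 6.37, 6.18 and 6.19 in wild-type mock, 6.62, 6.33 and 6.46 in mutant mock, 6.30, 6.15 and 6.41 in wild-type NAC and 6.69, 6.71 and 6.49 in mutant NAC. Mutant arrays were above all wild-type arrays in NAC and overlapped them in mock through 1 array of each group. Its log2 difference was 0.22 in mock, 0.34 in NAC (SE 0.13 each) and 0.28 over both (SE 0.09, adjusted p = 0.363). Without mutant mock replicate 1 it was 0.15 in mock. Kif22, which pushes chromosome arms toward the spindle equator, gave 5.75, 6.14 and 5.69 in wild-type mock, 6.04, 6.12 and 6.52 in mutant mock, 6.07, 5.65 and 5.85 in wild-type NAC and 6.46, 6.06 and 6.26 in mutant NAC. The genotypes overlapped in both treatments, with the mutant means higher in each. The log2 difference was 0.37 in mock, 0.40 in NAC (SE 0.18 each) and 0.39 over both (SE 0.13, adjusted p = 0.373). The value in mock was 0.22 without mutant mock replicate 3.

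Kif11, the motor that pushes spindle poles apart, gave 7.37, 7.67 and 7.19 in wild-type mock, 7.98, 7.73 and 7.66 in mutant mock, 7.54, 7.88 and 7.51 in wild-type NAC and 7.76, 7.74 and 7.96 in mutant NAC. Wild-type mock replicate 2 lay just above the lowest mutant mock array, and 1 wild-type NAC array lay within the mutant range. The log2 difference was 0.38 in mock (SE 0.16, adjusted p = 0.721), 0.18 in NAC (SE 0.16) and 0.28 over both (SE 0.11, adjusted p = 0.477). In NAC it was 0.11 without mutant NAC replicate 3 and 0.295 without wild-type NAC replicate 2. Kif15, which works beside Kif11 at the spindle, differed between genotypes over both treatments by 0.23 (SE 0.14). Without mutant mock replicate 1 that was 0.11. Kif23, which bundles midzone microtubules, differed by 0.17 (SE 0.14, or 0.06 without that array) and Kif4, a motor of chromosome arms, by -0.01 (SE 0.11).

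A pair of kinesins that act on microtubule ends gave the smallest unadjusted p of the interaction. Kif2c, which takes microtubule ends apart at centromeres, gave 5.66, 6.23 and 6.10 in wild-type mock, 6.69, 6.42 and 5.95 in mutant mock, 6.65, 6.57 and 6.15 in wild-type NAC and 5.69, 6.41 and 6.07 in mutant NAC. On average it was higher with NAC in wild type and lower with NAC in the mutant, and all these ranges overlapped. Its log2 difference with NAC was 0.46 in wild type and -0.30 in the mutant (SE 0.23 each). The first became 0.29 when wild-type mock replicate 1 was left out, and the second -0.11 when mutant NAC replicate 1 was. The interaction was -0.76 (SE 0.33, adjusted p = 0.999), and -0.57 without mutant NAC replicate 1.

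Kif18a, which dampens the movement of chromosomes at the spindle equator, gave 4.28, 5.14 and 4.43 in wild-type mock, 5.07, 5.05 and 4.95 in mutant mock, 5.19, 4.94 and 5.09 in wild-type NAC and 5.13, 4.97 and 4.75 in mutant NAC. Wild-type mock replicates 1 and 3 were below every other array, and replicate 2 lay among the highest. The log2 difference with NAC in wild type was 0.46 (SE 0.19, adjusted p = 0.833), which became 0.29 without wild-type mock replicate 1 and 0.72 without replicate 2. The interaction was -0.53 (SE 0.27, adjusted p = 0.999).

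**Figure D4:**
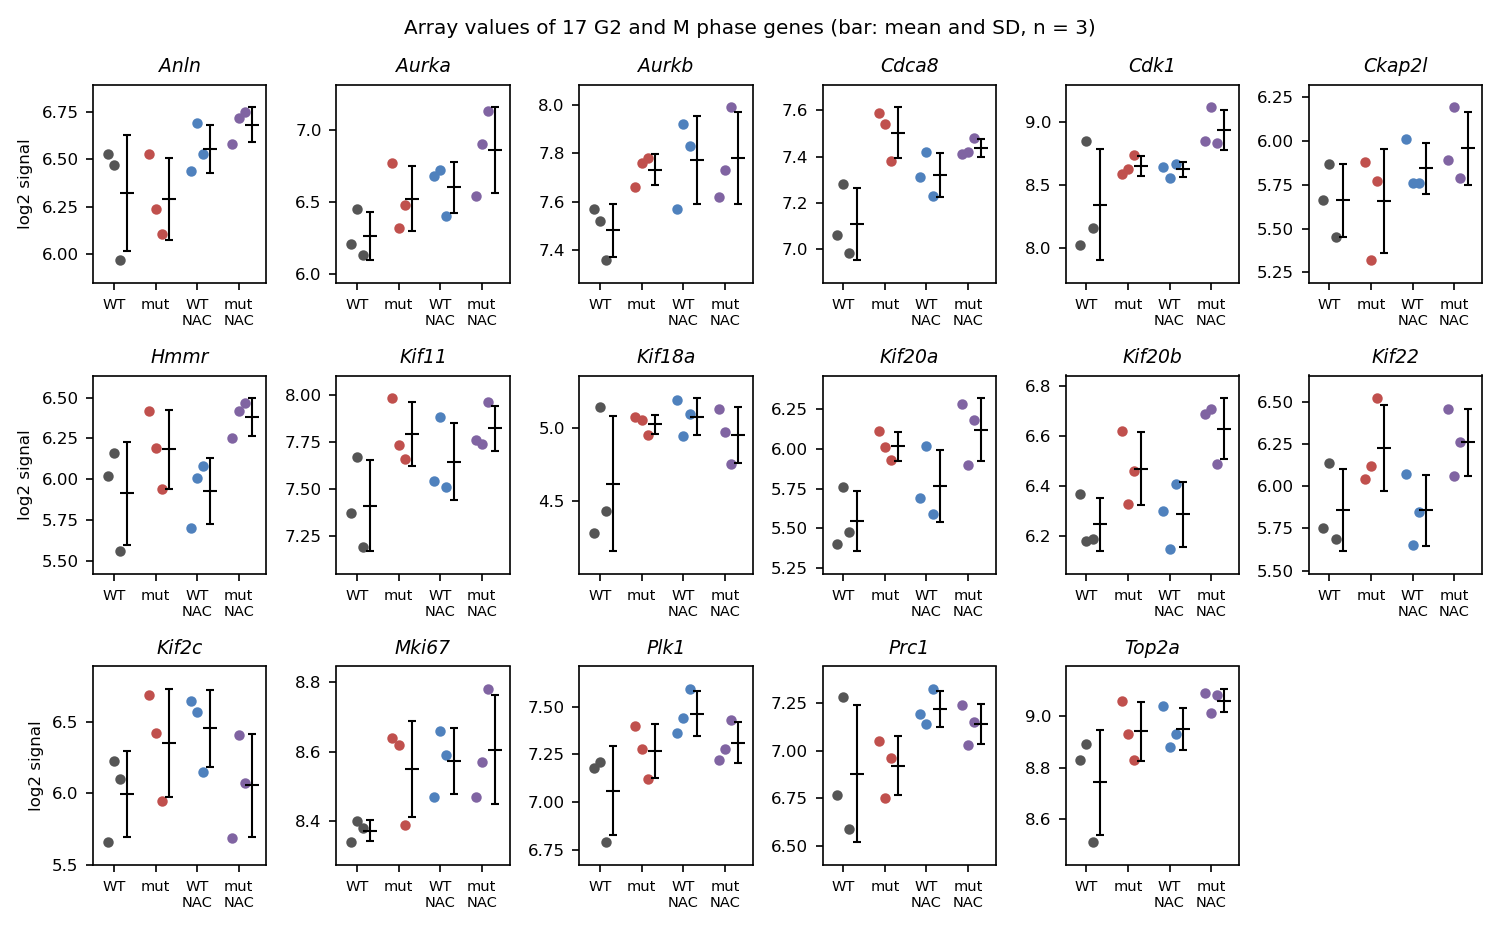
Log2 signals (y axis) of 17 G2 and M phase genes in each array (points) by group (x axis), with the mean and SD of 3 arrays beside them. Mutant mock lies above wild-type mock in every array for Kif20a, Cdca8 and Aurkb, and Plk1 is higher with NAC in every wild-type array.

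Kinetochore and checkpoint genes, whose products hold chromosomes on the spindle and delay anaphase until all are attached, had a median log2 difference of 0.11 between genotypes in mock (5 of 8 higher) and 0.13 over both treatments (6 of 8 higher, with Cenpf at 0). Those medians were 0.02 and 0.05 without wild-type mock replicate 1. Of all genes, 50.2% were higher in mock and 50.6% over both treatments. Over both treatments, the checkpoint kinase gene Bub1 differed by 0.11 (SE 0.11), Bub1b, which encodes BUBR1, by 0.29 (SE 0.14) and Bub3, their binding partner, by 0.01 (SE 0.12). Ndc80 and Nuf2, which form the microtubule-binding rod, differed by 0.15 (SE 0.19) and 0.19 (SE 0.10). Cenpe, a kinetochore motor, differed by 0.21 (SE 0.12) and Cenpf, a kinetochore and nuclear matrix protein, by 0.00 (SE 0.09). Cenpa, the histone that marks centromeres, was the exception in sign at -0.23 (SE 0.12, adjusted p = 0.597). With NAC over both genotypes, Ndc80 had a difference of -0.31 (SE 0.19) and Bub1 one of 0.23 (SE 0.11, adjusted p = 0.679). None of the 8 reached an unadjusted p of 0.05 in either. With 1 array left out, the genotype difference of Ndc80 ran from 0.02 to 0.25, that of Bub1 from 0.065 to 0.19 and that of Cenpa from -0.31 to -0.14, and the NAC difference of Ndc80 from -0.44 to -0.21.

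Genes of spindle and microtubule binding proteins had a median difference of 0.04 between genotypes in mock, with 4 of 7 higher, against 50.2% of all genes. With NAC over both genotypes, 7 of 7 were higher, against 49.3% of all genes, with a median of 0.11. These became -0.10 with 3 higher and 0.03 with 6 higher when wild-type mock replicate 3 was left out. Hmmr, a spindle pole protein also known as a hyaluronan receptor, gave 6.02, 6.16 and 5.56 in wild-type mock, 6.42, 6.19 and 5.94 in mutant mock, 5.70, 6.01 and 6.08 in wild-type NAC and 6.25, 6.42 and 6.47 in mutant NAC. Mutant arrays were above all wild-type arrays in NAC and overlapped them in mock. The log2 difference was 0.45 in NAC (SE 0.18, adjusted p = 0.659), 0.27 in mock (SE 0.18) and 0.36 over both (SE 0.13, adjusted p = 0.409). The value in mock was 0.09 without wild-type mock replicate 3.

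Prc1, which bundles the midzone microtubules, gave 6.77, 7.28 and 6.59 in wild-type mock, 7.05, 6.75 and 6.96 in mutant mock, 7.19, 7.14 and 7.32 in wild-type NAC and 7.24, 7.03 and 7.15 in mutant NAC. All NAC arrays but 1 were above all mock arrays other than wild-type mock replicate 2. The log2 difference with NAC was 0.34 in wild type and 0.22 in the mutant (SE 0.17 each), and 0.28 over both (SE 0.12, adjusted p = 0.617). In wild type, leaving out wild-type mock replicate 3 gave 0.19 and leaving out replicate 2 gave 0.54, and the value in the mutant was 0.135 without mutant mock replicate 2. Ckap2l, a protein of spindle microtubules, gave 5.66, 5.87 and 5.45 in wild-type mock, 5.88, 5.32 and 5.77 in mutant mock, 6.01, 5.76 and 5.76 in wild-type NAC and 5.89, 6.19 and 5.79 in mutant NAC. Mutant NAC overlapped mutant mock in 1 array. Its log2 difference with NAC in the mutant was 0.30 (SE 0.17, adjusted p = 0.897), and 0.13 without mutant mock replicate 2. Between genotypes over both treatments, Tpx2, which activates Aurora A, differed by 0.01 (SE 0.10), Nusap1, a microtubule bundler, by 0.03 (SE 0.11), Dlgap5, of kinetochore fibres, by 0.22 (SE 0.13) and Aspm, of spindle poles, by -0.15 (SE 0.18). With 1 array left out, Dlgap5 ran from 0.14 to 0.34 and Aspm from -0.30 to -0.025.

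The cytokinesis genes comprised Anln, which encodes the ring scaffold anillin, Ect2, the activator of RhoA at the division plane, and Racgap1, its partner. Anln gave 6.53, 6.47 and 5.97 in wild-type mock, 6.53, 6.24 and 6.11 in mutant mock, 6.44, 6.69 and 6.53 in wild-type NAC and 6.58, 6.72 and 6.75 in mutant NAC. Every mutant NAC array was above every mutant mock array, and the wild-type groups overlapped. Its log2 difference with NAC was 0.39 in the mutant (SE 0.16, adjusted p = 0.829), 0.23 in wild type (SE 0.16) and 0.31 over both (SE 0.12, adjusted p = 0.551). In wild type it was 0.05 without wild-type mock replicate 3. Ect2 differed by 0.30 between genotypes over both treatments (SE 0.13, adjusted p = 0.539) and Racgap1 by 0.06 (SE 0.10).

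The chromosome genes Top2a and Mki67, both in wide use as markers of cycling cells, varied little. Top2a, which encodes topoisomerase II alpha, gave 8.83, 8.89 and 8.51 in wild-type mock, 9.06, 8.93 and 8.83 in mutant mock, 9.04, 8.88 and 8.93 in wild-type NAC and 9.09, 9.01 and 9.08 in mutant NAC. Mki67, which encodes the Ki-67 antigen that coats mitotic chromosomes, gave 8.34, 8.40 and 8.38, then 8.64, 8.62 and 8.39, then 8.47, 8.66 and 8.59 and last 8.47, 8.57 and 8.78 in the same order of groups. The wild-type mock arrays of Mki67 were all below those of wild-type NAC, and 1 mutant mock array lay within their range. Over both treatments the log2 difference between genotypes was 0.15 for Top2a (SE 0.09, adjusted p = 0.636) and 0.10 for Mki67 (SE 0.09, adjusted p = 0.761). Over both genotypes the difference with NAC was 0.16 (SE 0.09, adjusted p = 0.740) and 0.13 (SE 0.09, adjusted p = 0.808). The Top2a values became 0.095 and 0.105 when wild-type mock replicate 3 was left out, and those of Mki67 became 0.06 and 0.085 when mutant NAC replicate 3 was.

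The remaining genes had small differences between genotypes over both treatments. Cdc20, which activates the anaphase-promoting complex, differed by 0.12 (SE 0.10) and Ube2c, the enzyme that supplies it with ubiquitin, by 0.06 (SE 0.13). Cdca2, which brings a phosphatase to chromosomes at the end of mitosis, differed by 0.04 (SE 0.12). Cdca3, a trigger of mitotic entry, differed by -0.01 (SE 0.13) and Fam64a by 0.03 (SE 0.18).

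Other genes of the same pathway were read from 5 lists that hold none of the 45. No gene of these lists passed the test in any comparison. Of 72 further mitosis genes, 66 were measured, and between genotypes over both treatments 50 were higher in the mutant, with a median log2 difference of 0.09 (50.6% of all genes were higher). At an unadjusted p under 0.05, 15 were higher (22.7%) and 0 lower, against 4.74% and 4.34% of all genes. Without wild-type mock replicate 3, 41 were higher, with a median of 0.07 and 12 at that p, and without replicate 2 the median was 0.145. Bora, the activator of PLK1, gave 6.46, 6.68 and 6.59 in wild-type mock, 7.20, 6.82 and 6.80 in mutant mock, 6.49, 6.58 and 6.62 in wild-type NAC and 6.97, 6.91 and 7.06 in mutant NAC. All 6 mutant arrays were above all 6 wild-type arrays, and the log2 difference was 0.39 (SE 0.09, adjusted p = 0.242). Zwint, a kinetochore adaptor, also had all mutant arrays above all wild-type arrays, with a difference of 0.40 (SE 0.10, adjusted p = 0.284).

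The upstream regulators of the programme were all measured, 17 of 17. Over both treatments 12 were higher in the mutant, against 50.6% of all genes. The median was 0.07, or 0.03 without mutant mock replicate 1. Foxm1 differed by 0.16 (SE 0.10, adjusted p = 0.642), Mybl2, which encodes B-MYB, by -0.02 (SE 0.12) and Rbl1, which encodes the DREAM subunit p107, by 0.25 (SE 0.10, adjusted p = 0.485). Of the anaphase-promoting complex 17 of 17 genes were measured and 10 were higher, with a median of 0.05, the subunit Cdc26 by 0.46 (SE 0.11, adjusted p = 0.242). Leaving out wild-type mock replicate 3 gave a median of 0.01, and leaving out replicate 2 gave 0.135. Among genes that brake the step from G2 to M, 10 of 12 were measured and 5 were higher, with a median of -0.08 (-0.02 without mutant NAC replicate 1). The antiproliferative gene Btg2 gave 9.42, 9.25 and 9.56 in wild-type mock, 8.90, 8.85 and 8.79 in mutant mock, 9.04, 9.07 and 8.87 in wild-type NAC and 8.41, 8.42 and 8.55 in mutant NAC. The mutant was below wild type in every array within each treatment. Its log2 difference was -0.55 between genotypes over both treatments (SE 0.08, adjusted p = 0.0597) and -0.40 with NAC over both genotypes (SE 0.08, adjusted p = 0.219). Gadd45b, a stress-induced inhibitor of CDK1, differed by -0.44 between genotypes over both treatments (SE 0.18, adjusted p = 0.493). With NAC over both genotypes its difference was 0.69 (SE 0.18, adjusted p = 0.386). Of the 10 brake genes, 0 were higher and 2 lower in the mutant over both treatments at an unadjusted p under 0.05. The shares of all genes were 4.74% and 4.34%.

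Genes of S phase and DNA replication, which act one phase earlier, were measured for 36 of 39. Between genotypes over both treatments 28 were higher in the mutant (77.8%, against 50.6% of all genes), with a median of 0.09, and Rrm2, a subunit of ribonucleotide reductase, differed by 0.46 (SE 0.13, adjusted p = 0.315). With NAC over both genotypes 35 of 36 were higher (97.2%, against 49.3% of all genes), with a median of 0.10. Both counts were smaller without wild-type mock replicate 3, at 25 and 31, with medians of 0.075 and 0.09. With NAC over both genotypes and all arrays kept, the replication licensing gene Cdc6 differed by 0.46 (SE 0.12, adjusted p = 0.400). Gins1, of the replicative helicase, differed by 0.42 (SE 0.12, adjusted p = 0.401). Without wild-type mock replicate 3 the values were 0.36 for Cdc6 and 0.47 for Gins1. By array, the mean deviation of the S phase list ran from -0.17 to -0.10 in wild-type mock, from -0.07 to 0.11 in mutant mock, from 0.00 to 0.07 in wild-type NAC and from 0.03 to 0.11 in mutant NAC. Unlike the G2 and M phase genes, whose wild-type mock range reached 0.11, the S phase list had all wild-type mock arrays below all other arrays.

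**Figure D5:**
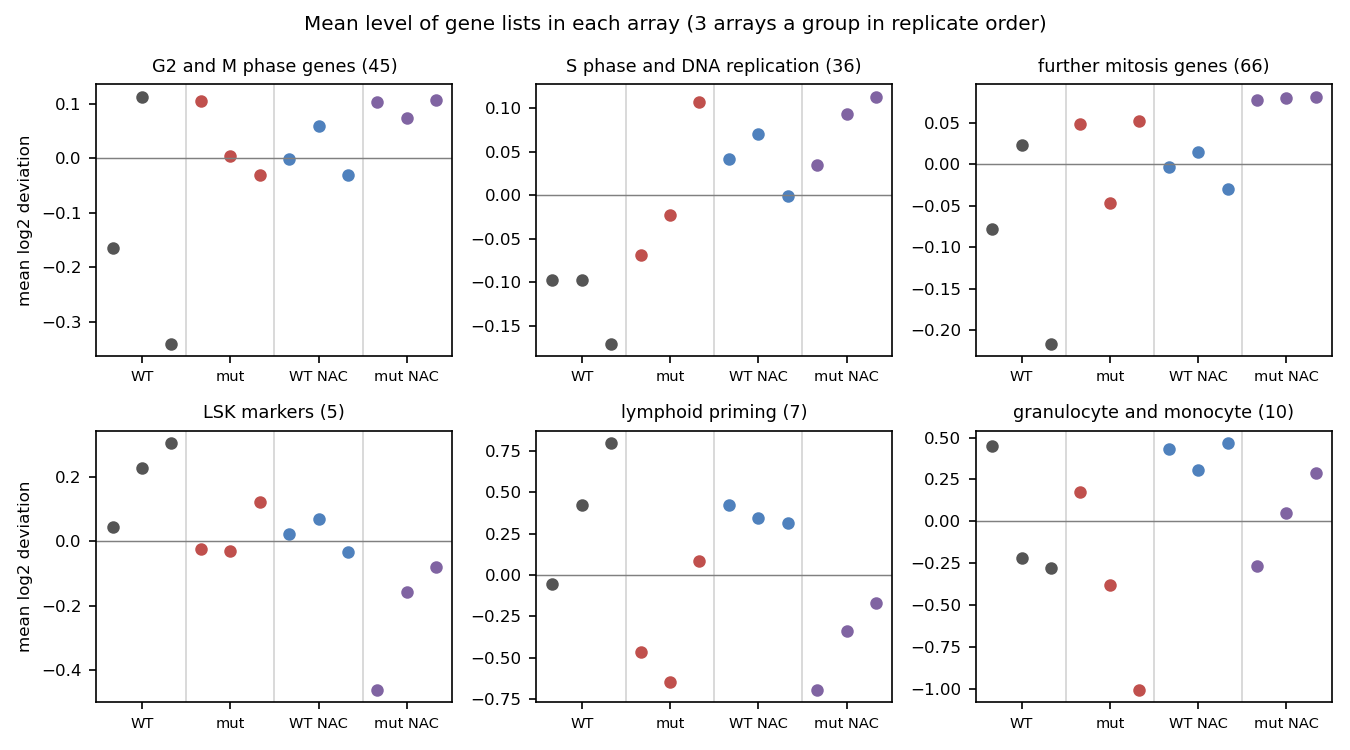
Each panel is a gene list and each point the mean over its genes of the log2 deviation from the 12-array mean (y axis) in 1 array, by group (x axis). Wild-type mock spans -0.34 to 0.11 for the G2 and M phase genes and -0.17 to -0.10 for S phase genes.

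Marker lists of other cell types also differed between these groups, and their part in the values above was not tested. Lymphoid priming markers (7 of 8 measured, such as Dntt, Il7r and Rag2), as mean log2 deviation per array, ran from -0.06 to 0.80 in wild-type mock, where replicate 3 was highest, from -0.65 to 0.08 in mutant mock, from 0.31 to 0.42 in wild-type NAC and from -0.70 to -0.17 in mutant NAC. Markers of the LSK fraction, of which 5 of 6 were measured, ran from 0.04 to 0.30 in wild-type mock, again highest in replicate 3. They ran from -0.03 to 0.12 in mutant mock, from -0.03 to 0.07 in wild-type NAC and from -0.46 to -0.08 in mutant NAC. The array in which the G2 and M phase genes were lowest was the one in which both of these lists, which share Flt3, were highest. Wild-type mock replicate 2, where the mean of the G2 and M phase genes was highest, was not low in these lists. It stood at 0.23 for the LSK markers and 0.42 for lymphoid priming. Stem cell markers (7 of 8 measured) ran from -0.18 to 0.24 in wild-type mock, 0.10 to 0.34 in mutant mock, -0.31 to -0.08 in wild-type NAC and -0.24 to 0.14 in mutant NAC.

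Megakaryocyte markers (5 of 6 measured) ran from -0.41 to -0.18 in wild-type mock, -0.09 to 0.53 in mutant mock, -0.36 to -0.29 in wild-type NAC and 0.29 to 0.47 in mutant NAC, so that all mutant arrays were above all wild-type arrays. Selp, which encodes P-selectin, was the only one of all these markers that passed the test, between genotypes over both treatments (adjusted p = 0.0269). Erythroid markers (6 of 9 measured) ran from -0.49 to 0.10 in wild-type mock, -0.49 to 0.04 in mutant mock, -0.11 to 0.24 in wild-type NAC and 0.17 to 0.56 in mutant NAC. Granulocyte and monocyte markers (10 of 10 measured) ran from -0.28 to 0.45 in wild-type mock, -1.01 to 0.17 in mutant mock, 0.30 to 0.47 in wild-type NAC and -0.27 to 0.29 in mutant NAC.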

How the data were processed

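Total RNA of 12 samples of sorted LSK cells was labelled with biotin and hybridised to 1-colour Affymetrix arrays. The authors deposited log2 signals per probe set. The submitters' processing notes name RMA and Affymetrix Power Tools; their versions were not given in the sources used here. As RMA equalises the distributions of the arrays, array-wide shifts are removed. The log base was read from the values, which span 0.74 to 13.23. Of 41345 probe sets, 23521 name 1 gene symbol, and the brightest per symbol was kept for 22180 genes, with no filter.

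One mean per group was estimated in limma 3.58.1 (lmFit and eBayes, R 4.3.3) from the 12 arrays together. The Benjamini-Hochberg adjustment of p-values ran over all genes within each of 7 comparisons, and 0.05 was the threshold. The procedure was tested on simulated data. The members and lists were chosen with earlier results of these data known, so no test over the list was made. Values in every array are given for Cdk1, Plk1, Aurka, Mki67, Top2a and the 3 genes of smallest p in each comparison (17 genes); others shown array by array, and Foxm1, were chosen with their values known. The other context genes named had one of the 2 smallest p of their list in a comparison. Replicate numbers were not used as a block. Figures were drawn with matplotlib 3.10.9. The number of arrays limits the precision.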

Additional observations from a re-analysis of the deposited data

How the results depend on the processing

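Under 22 alternative settings (array weights, dim genes left out, centring, a renewed quantile normalization, eBayes with trend and robust variance, averaged probe sets per symbol, only the compared groups, the replicate block, an adjusted p under 0.10, each array left out and both arrays of low weight left out), none of the 45 genes passed in any comparison, and the smallest adjusted p was 0.201. Leaving out 1 array at a time, the number of genes with an interaction above 0 was 11 to 27 (18 with all arrays) and the median NAC difference in wild type 0.0533 to 0.28 (0.18 with all arrays), with both extremes set by wild-type mock replicates 2 and 3. Plk1 had a genotype difference over both treatments of 0.03, which turned to -0.0408 without wild-type mock replicate 3, -0.0067 without mutant mock replicate 1 and -0.0033 without mutant NAC replicate 3, with a range of -0.0408 to 0.0642. Among 30 results for single genes, 609 values under the alternatives kept their direction and these 3 did not. Many of the 609 could not change. The block, the variance setting, only the compared groups, dim genes left out, averaged probe sets and a looser threshold leave them unchanged. So does leaving out an array of a group not compared. Many of the 30 results were also chosen for a small p, so the count does not measure stability.

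With the replicate block, 0 of the 45 genes passed in any comparison. The block could not change a log2 difference, since each group holds each replicate number once, so only standard errors and p could move. Over all genes the block gave 1 call against 2 between genotypes in mock and 1 against 2 over both treatments. Deviations of same-numbered arrays correlated at -0.06 to 0.06, and 5 of 12 arrays correlated best with an array of their own number, so the numbers were not taken as pairs. The values of the other pathway lists, of the roles and of the genes outside these 30 results with 1 array left out were chosen after seeing the data. Calls over all genes ranged from 0 to 4 between genotypes in mock, 0 to 4 in NAC, 0 to 2 for NAC in the mutant, 1 to 5 in wild type, 0 to 2 for the interaction, 1 to 7 between genotypes over both treatments and 1 to 4 for NAC over both genotypes. The number of arrays, 3 a group, limits what could pass, and the depth does not apply to arrays.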
